A study of Mus musculus with 3 samples.

Results

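Slc35a4 and Mief1 are mouse genes whose messenger RNAs carry a second, short open reading frame (ORF) upstream of the annotated coding sequence (CDS), so that each can give a microprotein as well as its main protein. Both were chosen by gene symbol, by matching the transcript identifiers of the count tables to GENCODE M21 symbols. They are 2 of the 20808 genes with a listed 5′ UTR, CDS and 3′ UTR, and account for 6 (Slc35a4) and 8 (Mief1) of the 142446 listed transcripts. Ribosome profiling, which sequences the RNA fragments that ribosomes protect, was performed on primary cortical neuron cultures grown in Neurobasal with B27 and Glutamax. The 3 treatments had 1 library each, and every library pooled 3 dishes. Neurons were left without drug (WT), held in cycloheximide for 2 min (Chx), or held in harringtonine for 2 min before a short cycloheximide pulse (Harr). All lysis buffers held 100 µg/ml cycloheximide, so the WT library was also exposed to that drug after harvest. WT here names the absence of drug and not a genotype, and no genotype is given in the labels. Per the study's methods the neurons came from mid-gestation embryos of CD-1 mice. The free-text descriptions name fractions of another experiment, and the groups below follow the treatment labels.

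Cycloheximide stops elongating ribosomes where they are, whereas harringtonine holds ribosomes at start codons and lets those already elongating run off, so that reads concentrate around start sites. In a bicistronic message, ribosomes scan from the cap and can translate an upstream ORF before reaching the main CDS. The Slc35a4 CDS encodes a member of the nucleotide sugar transporter family and its upstream ORF encodes a microprotein of the inner mitochondrial membrane. The Mief1 CDS encodes MiD51, an outer mitochondrial membrane receptor that recruits the fission GTPase Drp1 (Dnm1l), and its upstream ORF encodes a microprotein that takes part in mitochondrial ribosome assembly with Malsu1 and Ndufab1.

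The longest Slc35a4 transcript (ENSMUST00000186538.6, chr18, mm10, plus strand) has a 5′ UTR of 1099 nt, a CDS of 975 nt at 36682119-36683093 and a 3′ UTR of 768 nt. Its 5′ UTR holds 18 ATGs, more than 98.4% of the 20663 5′ UTRs searched, whose median is 1. The seventh of them, with a purine at -3 and a G at +4, opens an ORF of 103 codons (312 nt), which ends 393 nt before the CDS and lies in the frame of the CDS. GENCODE annotates this ORF as the CDS of another Slc35a4 transcript (ENSMUST00000185899.1), spread over 3 exons between 36679609 and 36681725, so the deposited tables count its reads by themselves. Only 167 (0.808%) of the 5′ UTRs searched contained a complete upstream ATG ORF of at least 103 codons.

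The longest Mief1 transcript (ENSMUST00000023048.11, chr15, mm10, plus strand) has a 5′ UTR of 520 nt, a CDS of 1392 nt that runs over 4 segments from 80246744 to 80250135, and a 3′ UTR of 3236 nt. Its 5′ UTR holds 4 ATGs. The first and second share a frame and a stop codon in exon 1 and open ORFs of 19 and 17 codons. The third opens the microprotein ORF of 70 codons (213 nt), which lies within exon 2 at 80235835-80236047 and ends 113 nt before the CDS in a frame other than that of the CDS. It is annotated as a gene of its own, AC140267.1 (ENSMUST00000226485.1). An upstream ATG ORF of at least 70 codons was contained in 635 (3.07%) of the 5′ UTRs searched.

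The 3 places on the Mief1 transcript where the reads of the results below gathered, or where a protein starts, are shown with 12 bases before the first ATG and with every ATG in capitals. They let the spacing of the upstream ATG pair and the letters around each start codon be seen. The first lies at chr15:80234096-80234125 in exon 1, the second at chr15:80235823-80235852 in exon 2, and the third joins chr15:80236149-80236153 to chr15:80246737-80246761 across a splice junction. The sequences are those of the GENCODE M21 transcript, 5′ to 3′.
First upstream ATG pair: agtagaggggccATGttgATGggtgacccg
Microprotein start: cgtcggtcccccATGgccccttggagccga
MiD51 start: ctcaggtgagcaATGgcaggcgctggtgag
Of these, the MiD51 start has both a purine at -3 and a G at +4, while the microprotein start has the G alone.

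The libraries held 30219197 (WT), 35722483 (Chx) and 9754412 (Harr) reads, so Harr values rest on the fewest reads. A count of 0 allows up to 3 reads, which is 0.0993, 0.0840 and 0.308 RPM (reads per 1000000 reads of the library) in WT, Chx and Harr. Reads of the longest transcripts fell in 5′ UTRs for 6.14% in WT, 8.71% in Chx and 33.5% in Harr. All 8 neuronal markers were read in each library, 4213 RPM in WT, 4160 in Chx and 3851 in Harr for the list, against 213, 195 and 78.8 for 4 astrocyte markers, of which none was at 0. The 4 microglial markers summed to 1.44 to 2.80 RPM (P2ry12 at 0 in Chx and Harr, Cx3cr1 at 0 in Harr) and the 4 oligodendrocyte markers to 2.15 to 6.52 (Mog and Mobp at 0 in all 3 libraries). With 1 library per treatment no difference between treatments has a replicate check. Intervals below are 95% and cover counting error only, and every comparison describes these libraries.

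Both microprotein ORFs were read more densely than the CDS downstream of them in all 3 libraries. In WT the Slc35a4 microprotein ORF had 387 reads and the longer CDS had 94. In Chx the counts were 281 and 147, and in Harr 28 and 22. Per length, the ORF level was 41.0 RPKM (RPM per kilobase) in WT, 25.2 in Chx and 9.20 in Harr, against CDS levels of 3.19, 4.22 and 2.31 RPKM. The ORF was thus denser than the CDS by a factor of 12.9 (10.2 to 16.3) in WT, 5.97 (4.88 to 7.34) in Chx and 3.98 (2.19 to 7.29) in Harr, and the intervals of WT and Chx did not overlap. The 3′ UTR had 2, 1 and 5 reads.

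The CDS count of Slc35a4 is uncertain. Of its 975 start positions of 25-base words, 620 (63.6%) match the processed pseudogene Gm5866 on the same strand, which was listed with 3 reads in WT, 6 in Chx and 1 in Harr. The study's methods name TopHat with many hits allowed per read for the ORF calls on these treatments and Rsubread ahead of Plastid counts, and which of them made these tables, and how reads with several matches were then counted, is not given in the sources used here. If none of the CDS reads lay on shared positions, the CDS density would rest on 355 nt, and the ORF would still be denser by a factor of 4.68 (3.73 to 5.93) in WT and 2.18 (1.78 to 2.67) in Chx, whereas the interval in Harr, 1.45 (0.799 to 2.66), would reach equality. No word of the 5′ UTR is shared with another gene on the same strand. The first 128 of its positions lie opposite Apbb3.

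The Mief1 microprotein ORF had 257 reads in WT, 286 in Chx and 45 in Harr, and the longer CDS had 289, 383 and 45. The ORF level was 39.9 RPKM in WT, 37.6 in Chx and 21.7 in Harr. The CDS level was 6.87, 7.70 and 3.31 RPKM. The ORF was denser than the CDS by a factor of 5.81 (4.89 to 6.90) in WT, 4.88 (4.17 to 5.70) in Chx and 6.54 (4.23 to 10.1) in Harr, so the 3 intervals overlapped. The 3′ UTR had 0, 3 and 5 reads. No word of the Mief1 5′ UTR or CDS is shared with another gene apart from AC140267.1.

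Set beside the CDSs of all genes with at least 10 CDS reads, the microprotein ORFs ranked above the median in every library, the Slc35a4 ORF only just so in Harr at 9.20 RPKM against 8.28, and the main CDSs below it. In WT the Slc35a4 ORF was above 81.7% of 12980 CDSs and the Mief1 ORF above 81.3%, at a median CDS level of 9.13 RPKM. The main CDSs were above 27.4% and 43.3%. In Chx, over 13118 CDSs, the ORFs were above 72.3% (Slc35a4) and 80.0% (Mief1) and the CDSs above 32.6% and 45.2%. In Harr, over 11243 CDSs, the ORFs were above 53.0% and 76.3% and the CDSs above 17.8% and 25.04%. The low rank of the Slc35a4 CDS rests on the count that is uncertain. With its reads laid on the 355 nt not shared with Gm5866, it would be at 8.76 RPKM in WT, 11.6 in Chx and 6.35 in Harr, above 49.2%, 54.6% and 42.2% of CDSs.

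**Figure D1:**
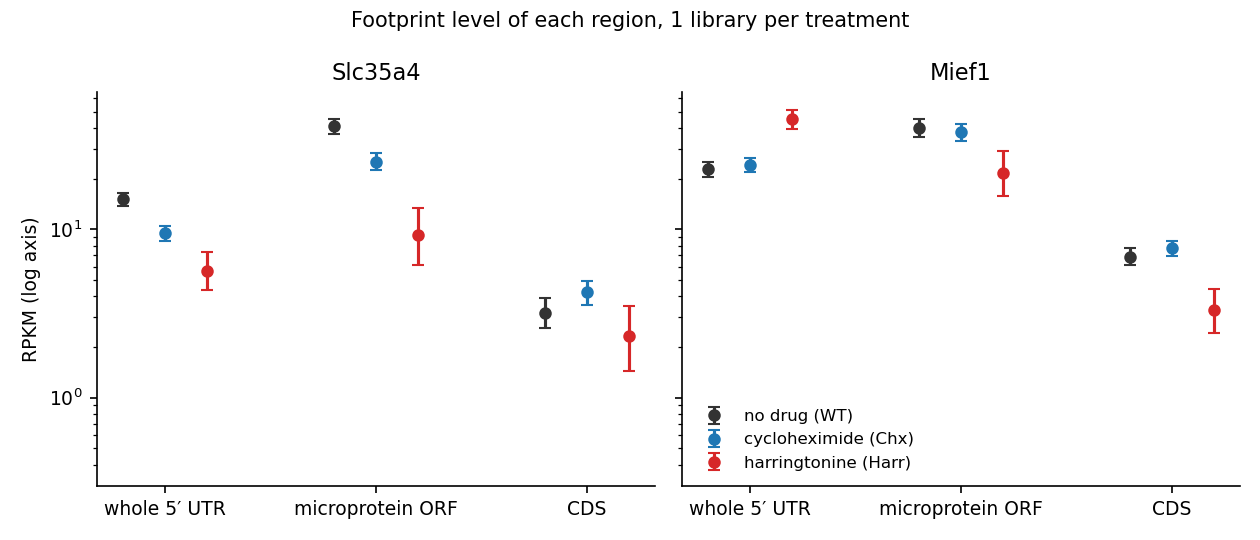
RPKM of the whole 5′ UTR, the microprotein ORF and the CDS of each gene (log axis). Points are single libraries, WT black, Chx blue and Harr red, and bars are 95% Poisson counting intervals. The microprotein ORF lies above the CDS in every library, and the Mief1 5′ UTR is the region that is highest in Harr, at 45.0 RPKM.

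Between treatments the regions of the 2 genes moved differently. In RPM, the Slc35a4 ORF in Chx was 0.614 (0.525 to 0.718) of its WT level, while its CDS was 1.32 (1.01 to 1.73) of it. In Harr the ORF was 0.224 (0.147 to 0.329) of WT and 0.365 (0.238 to 0.539) of Chx, and the CDS 0.725 (0.434 to 1.16) and 0.548 (0.333 to 0.861). The Mief1 ORF was at 0.941 (0.793 to 1.12) and its CDS at 1.12 (0.960 to 1.31) of WT in Chx, both intervals including 1. In Harr the Mief1 ORF was 0.542 (0.386 to 0.747) and the CDS 0.482 (0.344 to 0.662) of WT. Its whole 5′ UTR went the other way in Harr, to 1.98 (1.67 to 2.35) of WT and 1.86 (1.58 to 2.19) of Chx. Scaled instead by reads of mitochondrially encoded CDSs, which were 613 RPM in WT, 599.7 in Chx and 1069 in Harr, the Harr level of the Slc35a4 ORF would be 0.129 of WT and that of the Mief1 ORF 0.311. Scaled by the CDS reads of all genes, they would be 0.320 and 0.773, and the Slc35a4 CDS would be at 1.03 of WT in Harr. These levels are shares of all reads, so more reads elsewhere and fewer reads on a gene cannot be told apart.

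The ratio of ORF to CDS reads needs no scaling between libraries. For Slc35a4 the log2 odds ratio was -1.10 (-1.54 to -0.67) in Chx relative to WT, -1.69 (-2.56 to -0.83) in Harr relative to WT, and -0.59 (-1.44 to 0.26) in Harr relative to Chx. For Mief1 it was -0.25 (-0.58 to 0.08), 0.17 (-0.47 to 0.81) and 0.42 (-0.21 to 1.05), each interval including 0.

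Where the reads lay inside the 5′ UTRs was resolved below the exon, because transcripts of a gene cut the same exon into segments of different length. In Slc35a4 the last 45 nt of exon 1, which hold the microprotein ATG 15 nt before the splice site, had 0 reads in all 3 libraries. Exon 2 (99 nt, all ORF) had 30 reads in WT, 10 in Chx and 8 in Harr. The first 175 nt of exon 3 had 263, 218 and 19. The last 23 nt of the ORF, stop codon included, were the densest stretch in WT and Chx, with 94 and 53 reads, and had 1 read in Harr. In WT this was 4.09 reads per nt, 42.4 times the CDS density (15.4 times on the 355 nt not shared with Gm5866).

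Beyond the microprotein stop the reads of Slc35a4 were fewer but did not cease. The 393 nt between that stop and the CDS had 110 reads in WT, 88 in Chx and 26 in Harr, which is 2.90 (2.18 to 3.86), 1.49 (1.13 to 1.95) and 2.93 (1.60 to 5.43) times the CDS density. Against the 355 nt not shared with Gm5866 this would be 1.06 (0.795 to 1.41), 0.541 (0.410 to 0.709) and 1.07 (0.582 to 1.98) times, so that the excess would be gone in WT and Harr and turned round in Chx. In Harr the next 40 nt after the stop were the densest stretch of the 5′ UTR, with 9 reads. They hold a further ATG, with a purine at -3, that opens an ORF of 57 codons. Whether the reads belong to it was not tested. The 364 nt of long exon 1 ahead of the microprotein exon had 4, 3 and 7 reads. Those 7 were 11.5% of the Harr 5′ UTR reads, whereas 4 and 3 were 0.798% and 0.806% in WT and Chx. Altogether the ORF took 77.2% (73.4 to 80.7) of the 5′ UTR reads in WT, 75.5% (70.9 to 79.6) in Chx and 45.9% (34.0 to 58.3) in Harr, on 28.4% of the length.

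The Slc35a4 microprotein ATG lies 15 nt before a splice junction, and the shortest exons were poorly read. Internal coding exons of 24 nt or less, from which any read of at least 25 nt must cross a junction, held 2.90% (WT), 2.89% (Chx) and 2.19% (Harr) of the reads that an even CDS density would give, over 723 segments. Exons of 25 to 40 nt held 48.7% (WT), 46.3% (Chx) and 100.98% (Harr) of the even count, and exons of 41 to 100 nt 89.4%, 88.6% and 75.97%. The part of this in the Slc35a4 values was not tested. For genes whose main start codon lies at most 16 nt before a junction, the median log2 change of the 5′ UTR:CDS ratio from Chx to Harr was 2.56 (579 genes), against 2.44 for 17 nt or more (9345 genes). That split concerns main start codons and whole 5′ UTRs, so it cannot show what is lost at an upstream ATG such as that of Slc35a4.

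In Mief1 the Harr reads gathered at 2 places ahead of ATGs. The 7 nt just before the first upstream ATG in exon 1, inside the first sequence shown above, had 14 reads in WT, 21 in Chx and 42 to 43 in Harr, ranges being what the nested segments allow. All of exon 1 (164 nt) had 30, 32 and 47 reads, so nearly all of its Harr reads lay in those 7 nt. In RPM, the 7 nt had 0.463 in WT, 0.588 in Chx and 4.31 to 4.41 in Harr. The 74 nt after them, which hold both short ORFs, had 16 reads in WT, 10 in Chx and 0 to 1 in Harr.

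The second place was the 30 nt of exon 2 that end at the microprotein ATG. They had 35 to 67 reads in WT, 81 to 126 in Chx and 78 to 123 in Harr, although Harr was sequenced least. In RPM this was 1.16 to 2.22 in WT, 2.27 to 3.53 in Chx and 7.996 to 12.6 in Harr, and the Harr range lay above the others. These 30 nt took 34.2% to 53.9% of the Harr 5′ UTR reads, against 9.83% to 18.8% in WT and 18.04% to 28.1% in Chx. The ORF itself then took 19.7% (15.1 to 25.4) of the 5′ UTR reads in Harr, 72.2% (67.3 to 76.6) in WT and 63.7% (59.2 to 68.0) in Chx, on 41.0% of the length. Reads were assigned at their 5′ ends, so a ribosome on an ATG is counted upstream of it.

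Downstream of the Mief1 microprotein stop, the 106 nt left in exon 2 had 0 to 32 reads in WT, 0 to 45 in Chx and 10 to 55 in Harr. The 7 nt next to the CDS had 2, 5 and 3. They are all of the first coding exon that lies ahead of the MiD51 ATG. A read that begins farther upstream must cross a splice junction to reach that ATG. The part of this in the Mief1 counts was not tested. Within the CDS the first coding segment (144 nt) had 40 reads in WT, 89 in Chx and 16 in Harr. The second (178 nt) had 50, 64 and 1, and the third (263 nt) 47, 69 and 7. The last (807 nt) had 152, 161 and 21. So Harr density was highest in the segment that holds the start codon, as it was in Chx, while in WT the first and second segments were near each other, at 0.278 and 0.281 reads per nt.

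**Figure D2:**
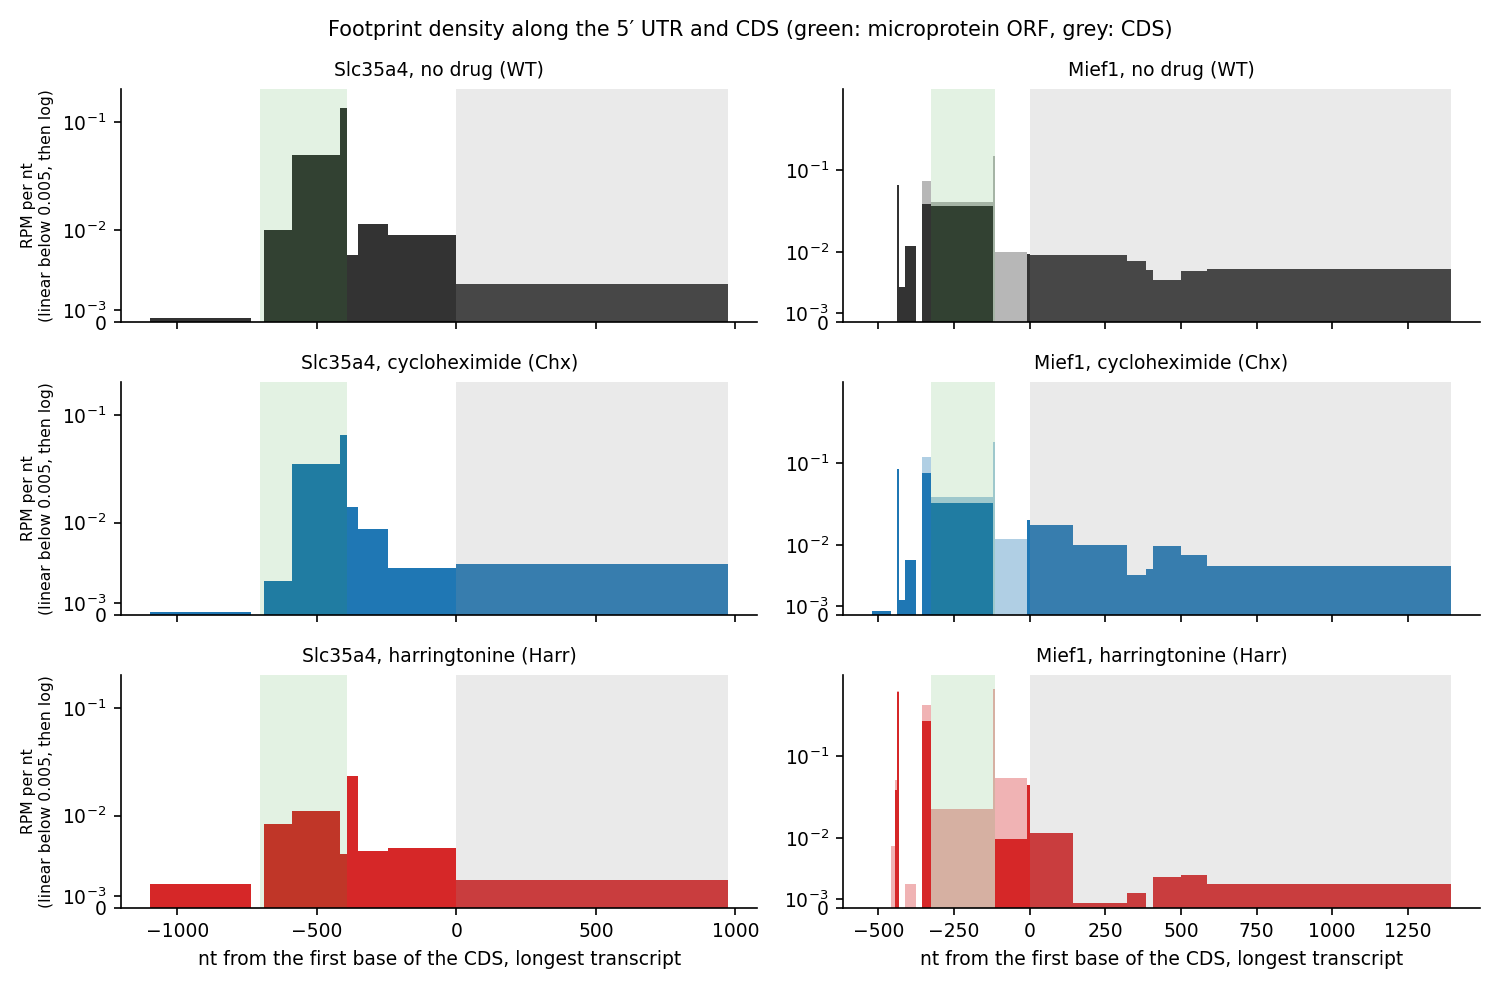
RPM per nt along the 5′ UTR and CDS of the longest transcripts, by distance from the first CDS base (y axis linear below 0.005, then log). Each bar is a stretch the segments resolve, pale tops show the range they allow, green marks the microprotein ORF and grey the CDS. The Slc35a4 reads of WT and Chx are densest in the exon 3 part of the ORF, and the Mief1 Harr reads stand in the narrow bars ahead of the first upstream ATG and of the microprotein ATG.

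For comparison with all genes, the density of the 5′ UTR over that of the CDS was taken on the longest transcript of each. Slc35a4 had 501 5′ UTR reads in WT, 372 in Chx and 61 in Harr. Its density ratio was 4.73 (3.79 to 5.96) in WT, 2.25 (1.85 to 2.74) in Chx and 2.46 (1.49 to 4.21) in Harr. Mief1 had 356, 449 and 228 5′ UTR reads, and ratios of 3.30 (2.82 to 3.86), 3.14 (2.73 to 3.61) and 13.6 (9.82 to 19.1). In WT, Slc35a4 ranked 150 and Mief1 307 from the top of 11360 genes with at least 50 reads, above 98.7% and 97.3% of them. In Chx they were above 87.9% and 93.3% of 11670 genes, and in Harr Mief1 was above 90.1% and Slc35a4 above 33.5% of 9525. Without the exon 2 segment, which holds the microprotein ORF, Mief1 would have ratios of 0.901 (0.605 to 1.30) in WT and 0.786 (0.545 to 1.10) in Chx but still 9.04 (5.92 to 13.8) in Harr. With the CDS limited to bases not shared with Gm5866, Slc35a4 would have 1.72, 0.817 and 0.896. Its ranks were not recomputed on that length, on which they would be lower. The median gene had a ratio of 0.380 in WT, 0.669 in Chx and 3.85 in Harr. Since reads count at their 5′ ends, those of a ribosome on the main start codon fall in the 5′ UTR. These ratios therefore do not measure upstream translation alone. Ranks among genes were taken with 0.5 added to each count. On the longest transcripts with whole 5′ UTRs and CDSs, the 5′ UTR was denser than the CDS in both genes in every library, as in 21.1% of all genes in WT, 36.1% in Chx and 85.1% in Harr, so that in Harr this was the common state. For Slc35a4 in WT and Chx this turned round, to 0.388 (0.313 to 0.476) and 0.348 (0.274 to 0.437), when all transcripts were combined and the microprotein ORF was counted as CDS, and to 0.694 (0.455 to 1.04) and 0.170 (0.0883 to 0.299) with only the 5′ UTR segments that do not touch the main start codon.

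In WT and Chx most genes with an upstream ORF of at least 70 codons had lower ratios than Slc35a4 and Mief1, whereas in Harr Slc35a4 stood in the middle of them. Their median was 0.471 in WT (395 genes with enough reads), 0.579 in Chx (404) and 2.51 in Harr (349). In WT, 7 of the 395 were above Slc35a4 and 18 above Mief1. In Chx 52 of the 404 were above Slc35a4 and 23 above Mief1. In Harr 181 of the 349 were above Slc35a4 and 8 above Mief1. With its CDS length limited to bases not shared with Gm5866, Slc35a4 would have 1.72 (WT), 0.817 (Chx) and 0.896 (Harr). These lie above the median of the group in WT and Chx and below it in Harr. The counts of genes above Slc35a4 were not recomputed on that length.

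**Figure D3:**
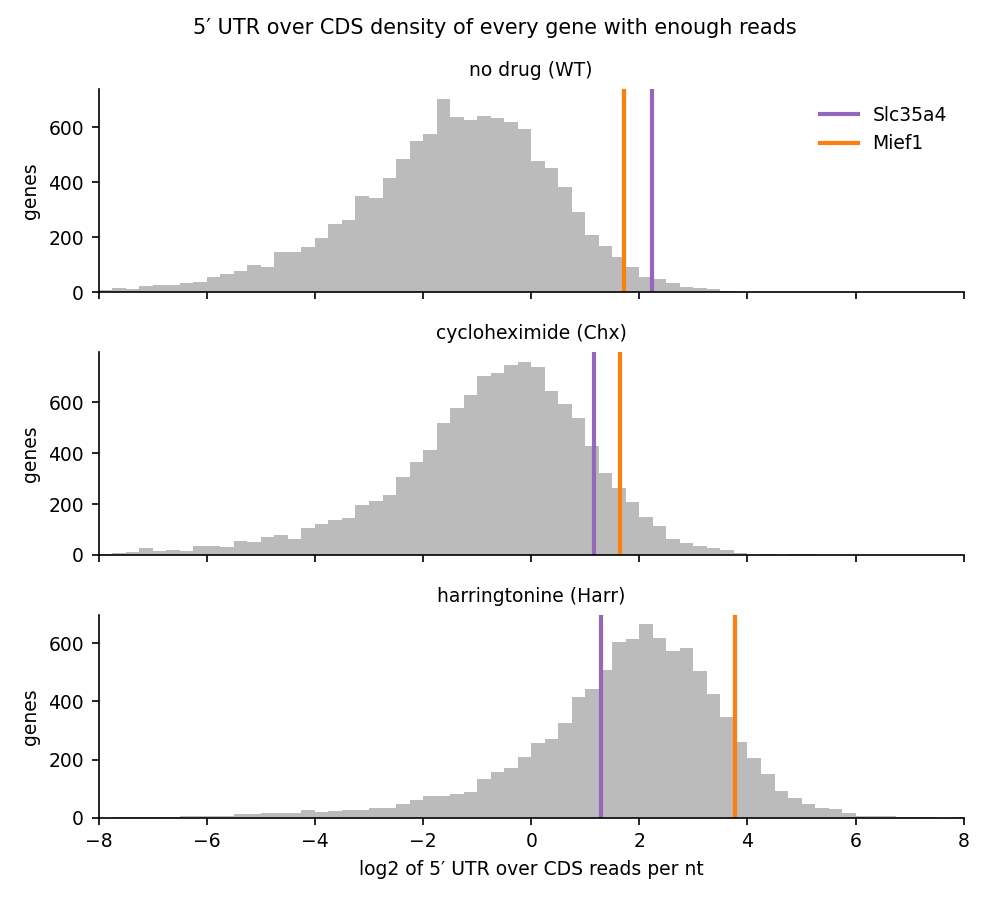
Number of genes by log2 of the 5′ UTR over CDS density in WT, Chx and Harr (genes with at least 50 reads in the library), with Slc35a4 in purple and Mief1 in orange. On whole CDS lengths both lie in the upper tail in WT. In Harr the distribution has moved past Slc35a4, which is above 33.5% of genes.

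The change of the 5′ UTR:CDS ratio between libraries was expressed as a log2 odds ratio (5′ UTR reads over CDS reads in the first library, relative to the second) with 0.5 added to each count. For Harr against Chx the median of 10723 genes was 2.46. Mief1 stood at 2.10 (1.60 to 2.60), above 36.2% of genes, and Slc35a4 at 0.11 (-0.63 to 0.86), above 1.72%. Of the 2 genes, 1 (Mief1) was at least 2-fold higher, as were 92.1% of all genes, and 0 were at least 2-fold lower, as were 0.289%. For Harr against WT the median of 10314 genes was 3.23. Mief1 was at 2.03 (1.52 to 2.54), above 17.8% of genes. Slc35a4 was at -0.96 (-1.72 to -0.19), with 27 genes below it. Again Mief1 was the 1 gene at least 2-fold higher, against 96.0% of all genes, and 0 of 2 were at least 2-fold lower, against 0.262%. For Chx against WT, where the median of 10430 genes was 0.67, Mief1 was at -0.07 (-0.37 to 0.23), above 16.7% of genes, and Slc35a4 at -1.07 (-1.49 to -0.65), above 1.54%. Slc35a4 was the 1 of 2 genes at least 2-fold lower, as were 1.85% of all genes, and 0 of 2 were at least 2-fold higher, against 34.7%. The 3 comparisons share their libraries in pairs. On the longest transcripts both genes were below the median change in each of them. The 5′ UTR reads of these changes again include those of ribosomes on main start codons.

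The Slc35a4 values depended on what was counted as 5′ UTR. With all transcripts combined and every base that is CDS in any of them moved from the 5′ UTR to the CDS, 114 (WT), 91 (Chx) and 33 (Harr) 5′ UTR reads remained on 787 nt. The log2 odds ratio then came to 1.64 (0.93 to 2.34, Harr and Chx), 1.48 (0.78 to 2.18, Harr and WT) and -0.16 (-0.59 to 0.28, Chx and WT). The lower quartile of all genes on their longest transcripts was 1.77, 2.36 and 0.14, and the intervals of the first and the last value reach past it. With only the 5′ UTR segments that do not touch the main start codon, which still include exon 2 of the microprotein ORF, the values were 2.91 (1.68 to 4.14) for Harr and Chx, 0.92 (-0.17 to 2.01) for Harr and WT, and -1.996 (-2.98 to -1.01) for Chx and WT. The first of these rests on 15 (Harr) and 13 (Chx) 5′ UTR reads. It lay above the median of all genes on their whole 5′ UTRs, which was 2.46.

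**Figure D4:**
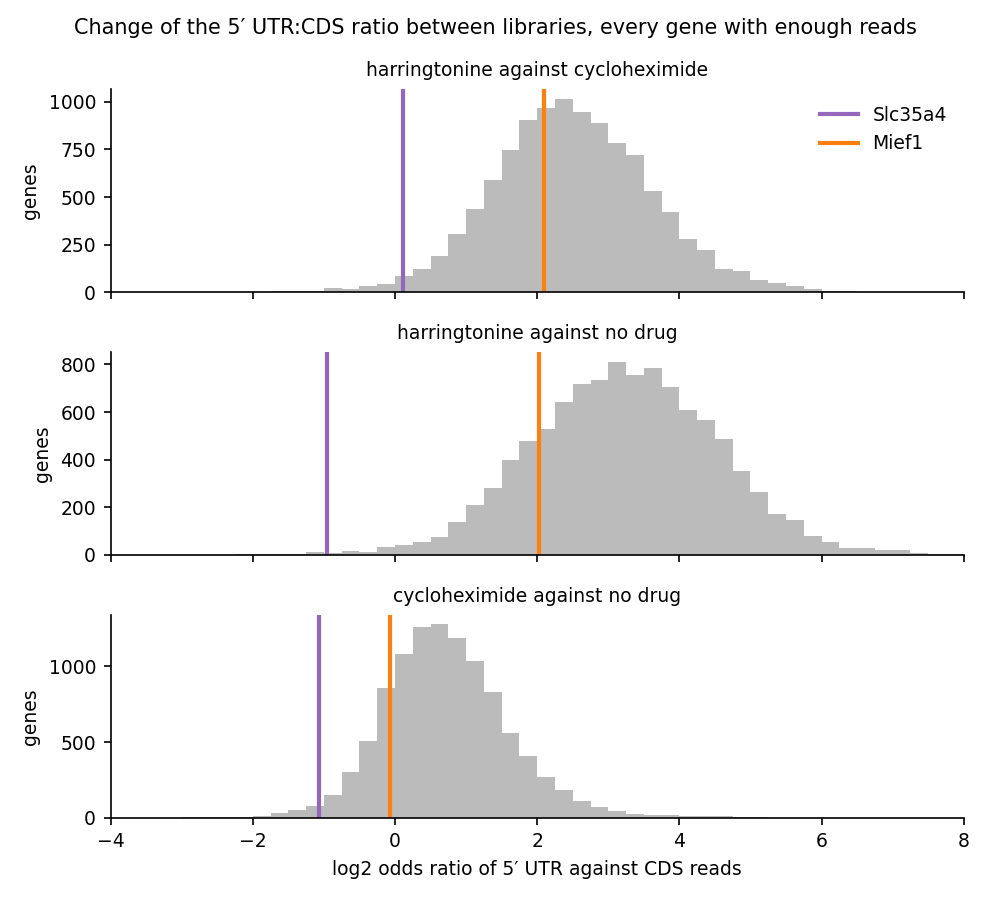
Number of genes by the log2 odds ratio of the 5′ UTR:CDS ratio for each pair of libraries (genes with at least 10 reads in both regions), with Slc35a4 in purple and Mief1 in orange. Mief1 lies inside each distribution below its median, and Slc35a4 lies in the lower tail of all 3.

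Other genes that give a second protein from an upstream or overlapping frame covered a wide range. Of 6 listed, 5 were found and had enough reads in WT, and 4 of the 5 had a denser 5′ UTR than CDS (21.1% of all genes), with a median ratio of 1.51. The highest was Mkks, a chaperonin-like protein, at 11.01 in WT, 8.65 in Chx and 33.7 in Harr, followed by Asnsd1 at 2.84, 4.41 and 10.4. The lowest were Mocs2, a molybdopterin synthase gene, at 0.176, 0.219 and 2.40, and Snrpn, which encodes a splicing protein, at 1.48, 0.993 and 0.735. Only Mkks exceeded Slc35a4 or Mief1 in WT. With the Slc35a4 CDS length limited to bases not shared with Gm5866, Slc35a4 would be at 1.72 in WT, and Asnsd1 would exceed it as well. For Harr against Chx 4 of the 5 were at least 2-fold higher (92.1% of all genes) and 0 lower (0.289%), with a median log2 odds ratio of 1.80, against 2.46 for all genes. For Harr against WT 4 of the 5 were at least 2-fold higher (96.0% of all genes) and 1 at least 2-fold lower (0.262%), namely Snrpn at -1.01.

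Of 12 genes with regulatory upstream ORFs, 11 had enough reads in WT and 6 of these had a denser 5′ UTR (21.1% of all genes), with a median ratio of 2.20. Azin1, the antizyme inhibitor, was at 9.58 in WT and 55.0 in Harr, and Ifrd1 at 6.16 and 16.6. These 2 were the only ones above Slc35a4 or Mief1 in WT, whereas 6 of 12 were above Slc35a4 and 5 above Mief1 in Chx, and 8 and 2 of 10 in Harr. With its CDS length limited to bases not shared with Gm5866, Slc35a4 would be at 1.72 in WT, below the median of this list. The lowest were Amd1, a polyamine synthesis enzyme, at 0.107 and 2.72, and the transcription factor gene Cebpb at 0.118 and 1.20. All 12 were at least 2-fold higher for Harr against Chx, near the 92.1% of all genes, with a median log2 odds ratio of 1.70 against 2.46 for all genes.

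Genes of mitochondrial fission and fusion, the processes that MiD51 serves, had a median WT ratio of 0.782 over 13, and 6 of the 13 had a denser 5′ UTR (21.1% of all genes). None exceeded Slc35a4 or Mief1 in WT, whereas 5 of 13 were above Slc35a4 and 3 above Mief1 in Chx, and 12 and 3 of 12 in Harr. With its CDS length limited to bases not shared with Gm5866, Slc35a4 would be at 1.72 in WT, below several genes of this list. The highest in WT were Mtfr1 at 2.51 and Gdap1 at 2.30, and the lowest Mtfp1 at 0.153 and Mff, a Drp1 receptor, at 0.270. For Harr against Chx 11 of 12 were at least 2-fold higher, near the 92.1% of all genes, with a median of 2.76 (all genes 2.46). Of the partners of the Mief1 microprotein, Ndufab1, the mitochondrial acyl carrier protein, had a WT ratio of 4.55. Malsu1 had one of 0.0214, which rests on 1 read in the 5′ UTR.

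Nucleotide sugar transporters related to Slc35a4 had a median WT ratio of 0.736, with 2 of 10 denser in the 5′ UTR, near the 21.1% of all genes (Slc35c2 at 2.49 and Slc35a5 at 1.37) and the lowest values in Slc35b3 (0.0876) and Slc35a2 (0.140). None reached the value of Slc35a4 in WT, whereas 1 did in Chx (Slc35c2 at 3.27) and 6 of 9 did in Harr. With its CDS length limited to bases not shared with Gm5866, Slc35a4 would be at 1.72 in WT, below Slc35c2. More of the transporters would then also lie above it in Chx and Harr. For Harr against Chx 9 of 11 were at least 2-fold higher (92.1% of all genes), and 1 was at least 2-fold lower (0.289% of all genes). The lower one was Slc35d1 (0 5′ UTR reads in Harr and 10 in Chx, named after its values were seen). It met the minimum of 10 reads through Chx alone, and its log2 odds ratio of -2.35 had a counting standard error of 2.14. Genes of the MICOS complex, which shapes the inner mitochondrial membrane, had 0 of 7 with a denser 5′ UTR in WT (21.1% of all genes) and a median ratio of 0.284. Immt (0.829) and Chchd6 (0.472) were the highest and Apoo (0.0416) and Apool (0.0756, on 1 read in the 5′ UTR) the lowest. All 6 with enough reads were at least 2-fold higher for Harr against Chx, near the 92.1% of all genes, with a median of 3.15 (all genes 2.46).

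The genes most like each of the 2 were found by the Euclidean distance over the log2 density ratios of the 3 libraries, among 3958 genes with at least 50 5′ UTR and 10 CDS reads in each. Mief1 had close neighbours, namely Atxn1 (distance 0.104), Wdr48 (0.157), Ambra1 (0.171), Slc16a14 (0.182) and Vps50 (0.184). Atxn1 had ratios of 3.50 in WT, 3.07 in Chx and 13.001 in Harr. The nearest to Slc35a4 were farther, namely Trim66 (0.740), Fbrs (0.795), Arhgap33 (0.914), Ankrd12 (0.932) and Gm28635 (0.992). Trim66 had ratios of 3.71, 2.00 and 3.77, and none of the 5 had a WT ratio as high as that of Slc35a4. The distances and this comparison rest on the whole Slc35a4 CDS. With its length limited to bases not shared with Gm5866, Slc35a4 would be at 1.72 in WT, below all 5.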

How the data were processed

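The members and gene lists were chosen with earlier results of these data known. Per the file headers, the authors assigned reads of 25 to 100 nt at their 5′ ends (offset 0) to exon segments of 5′ UTRs, CDSs and 3′ UTRs with Plastid, from mm10 alignments without rRNA reads and duplicates. The study's methods name TopHat for the ORF calls on these treatments and Rsubread ahead of Plastid counts, but which of them made these tables, and how reads with several matches were counted, is not given in the sources used here. The deposited count of each segment was used as given. The RPKM and the coverage per nucleotide deposited beside it are that count scaled by length and library total, and RPKM was recomputed from counts here.

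Of the 142446 identifiers, 99.0% matched GENCODE M21, and the longest transcript with all 3 regions stood for a gene. Density ratios have exact Clopper-Pearson intervals, shares Wilson intervals and levels Poisson intervals (95%). Log2 odds ratios had 0.5 added to each count and were given where the 2 libraries together had 10 or more reads in the 5′ UTR and in the CDS. No treatment difference was tested, since each has 1 library. Reads within nested segments were bounded by linear programming. Named from each list were at most the 2 highest and 2 lowest WT ratios among genes with at least 50 reads, and the 5 genes most like each member. A listed gene is not reported here, and its list was summarised without it. Python 3.11.15, pandas 2.3.3 and scipy 1.17.1 were used, and the ratio step was tested on simulated data.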

Additional observations from a re-analysis of the deposited data

How the results depend on the processing

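No paired analysis was possible because each treatment has 1 library. Of 120 alternative values, 10 turned the direction, 37 moved outside the counting interval of the reported value or past 1.5 times the reported count, and 73 stayed within. Of these 73, 2 also changed direction, namely the Slc35a4 log2 odds ratio for Harr against Chx, 0.11 and -0.02 with a pseudocount of 5, and the Slc35a4 CDS level in Harr, which was 1.03 of WT when scaled by the CDS reads of all genes. With all transcripts together, each base once and CDS bases of the gene moved out of the 5′ UTR, the 5′ UTR:CDS density ratio was 0.388 (WT), 0.348 (Chx) and 1.08 (Harr) for Slc35a4. For Mief1, whose microprotein ORF is listed under AC140267.1 and so stayed in the 5′ UTR, it was 1.72, 1.64 and 6.94 on a longer 5′ UTR of 1079 nt. With 5′ UTR segments that do not touch the main start codon alone, it was 0.694, 0.170 and 1.31 for Slc35a4. Without that ORF's exon 2 segment it was 0.901, 0.786 and 9.04 for Mief1. With the Slc35a4 CDS length limited to bases not shared with Gm5866, an alternative chosen after seeing the data, it was 1.72, 0.817 and 0.896. Leaving exon ends before junctions out of the lengths, also chosen after seeing the data, moved no ratio outside its interval.

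The Slc35a4 log2 odds ratio became 1.64 (Harr against Chx), 1.48 (Harr against WT) and -0.16 (Chx against WT) with all transcripts together, and 2.91, 0.92 and -1.996 with the segments away from the start codon. The change of Mief1 and the use of a pseudocount of 5 stayed within the intervals. Levels in Harr depend on the scaling. Per mitochondrially encoded CDS read, the Slc35a4 ORF was at 0.205 of Chx and 0.129 of WT and its CDS at 0.307 and 0.416, and the Mief1 ORF was at 0.323 and 0.311 and its CDS at 0.241 and 0.277. Per CDS read of all genes, the Mief1 ORF was at 0.843 and 0.773 and its CDS at 0.629 and 0.688, while the Slc35a4 ORF was at 0.534 and 0.320 and its CDS at 0.801 and 1.03. The 5′ UTR share of the Slc35a4 ORF was 83.9% (Chx) and 84.1% (WT) in the transcript with the shortest 5′ UTR of those that hold it.

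Genes at least 2-fold lower in Harr than in Chx numbered 31, and 10 with a pseudocount of 5, 10 with at least 50 reads and 430 with no minimum. For Harr against WT they numbered 27, and 15 with the most read transcripts, 16, 15 and 394. For Chx against WT 193 were lower, and 117, 51 and 1590 under the last 3 settings, while 3617 were higher, and 2272 with at least 50 reads and 5464 with no minimum. The cause of these moves was not tested, apart from the number of genes, which each minimum sets. Counts of 22 reads (CDS) and 61 reads (whole 5′ UTR) limit the Slc35a4 values in Harr, and the values of single stretches or segments rest on fewer.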
